A study of Mus musculus with 119 samples.

Results

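The genes examined were Il1a, Il1b, Il1rn and Il1bos, the 4 members of the interleukin-1 group chosen by gene symbol, out of 18098 genes measured by RNA-seq in 119 libraries of mouse bone marrow-derived macrophages (BMDMs). Each symbol had 1 measured entry, so all 4 members were found. The strain of all libraries was C57BL/6(NIMR). BMDMs are macrophages grown from bone marrow precursors in medium conditioned by L cells, a fibroblast line that secretes macrophage colony-stimulating factor. LPS, the bacterial cell wall component that signals through TLR4, was given at 100 ng/ml. WT cells (22 libraries) and Map3k8[D270A] cells (24 libraries), whose TPL-2 kinase is catalytically inactive, were taken without LPS and at 0.5, 1 and 2 h, as were Elk1-/-Elk4-/- cells (16 libraries), which lack a pair of ERK-regulated ETS transcription factors. Nfkb1[SS/AA] cells (18 libraries), whose p105 protein, the partner that holds TPL-2 inactive, resists signal-induced proteolysis, were taken without LPS and at 0.5 and 1 h. WT cells were also treated with 0.1 µM PD0325901, an inhibitor of MKK1/2, for 10 min before LPS (0.5 and 1 h), or without LPS for 10, 40 or 70 min (21 libraries in all). Further WT cells received the RSK inhibitor RSKi47 at 2 µM for 10 min and then no LPS or LPS for 0.5, 1 or 2 h (15 libraries), or DMSO for 10 min without LPS (3 libraries). A group held 6 libraries in the WT, Map3k8[D270A], Nfkb1[SS/AA] and PD0325901 plus LPS arms, except WT at 2 h (4), and 4 in the Elk1-/-Elk4-/- and RSKi47 arms, except RSKi47 at 0.5 h (3). The groups without LPS that received PD0325901 or DMSO held 3 each. The mutations and deletions were carried in the mouse, so marrow precursors matured with them.

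Values are the normalized log2 values that the authors deposited, and every difference below is on that scale. The sources used here do not state how the values were transformed, and differences may be drawn together by it, so none was turned into a fold change. The study's methods give only a typical read yield, and the files hold no depth per library, so precision rests on how far replicates scatter. A gene was called changed when its Benjamini-Hochberg adjusted p in limma's moderated test, over all genes tested, was below 0.05. The study's methods call the libraries biological replicates, but the sources used here do not say whether they came from separate animals or cultures, so the p-values measure the spread between these libraries.

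Interleukin-1α and interleukin-1β, the products of Il1a and Il1b, are agonists of the type 1 interleukin-1 receptor and start fever, endothelial activation and neutrophil recruitment. Interleukin-1β is made as an inactive precursor that caspase-1 cuts inside inflammasomes, so its transcript is a priming step, whereas the interleukin-1α precursor is already active. Il1rn encodes the receptor antagonist, which occupies the same receptor without signalling. Il1bos is a long noncoding RNA on the strand opposite Il1b, and its function is not assumed here.

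The 4 genes lie at 2 separate places on chromosome 2, so the name locus covers more than a single site. In the RefSeq annotation of GRCm38.p6, Il1a is at chr2:129299609-129310186 and Il1b at chr2:129364569-129371164, both on the minus strand and 54383 bp apart. Il1bos is at chr2:129369902-129375733 on the plus strand and overlaps the 5′ end of Il1b over 1263 bp, but the exons of the genes share 0 bp in the GENCODE annotation. Il1rn is at chr2:24336860-24351491 on the plus strand, 104.9 Mb from Il1a.

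The 250 bases before the annotated RefSeq start of the 3 protein-coding members are shown because Il1rn rose later with LPS than Il1a and Il1b did. They are from RefSeq on GRCm38.p6, 5′ to 3′ on the gene's own strand, and capitals mark matches to the motifs searched. The windows are chr2:129309973-129310222 (minus) for Il1a, chr2:129371140-129371389 (minus) for Il1b and chr2:24336610-24336859 (plus) for the first of 3 annotated Il1rn starts. The Il1a and Il1b windows end at the start of 1 annotated transcript and so reach into the RefSeq gene spans given above, but no exon of either gene in the GENCODE annotation lies in them.
Il1a: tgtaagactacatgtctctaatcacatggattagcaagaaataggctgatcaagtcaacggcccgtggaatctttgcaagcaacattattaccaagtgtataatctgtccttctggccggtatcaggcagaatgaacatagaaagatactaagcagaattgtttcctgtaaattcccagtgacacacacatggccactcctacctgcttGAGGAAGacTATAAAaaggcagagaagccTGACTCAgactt
Il1b: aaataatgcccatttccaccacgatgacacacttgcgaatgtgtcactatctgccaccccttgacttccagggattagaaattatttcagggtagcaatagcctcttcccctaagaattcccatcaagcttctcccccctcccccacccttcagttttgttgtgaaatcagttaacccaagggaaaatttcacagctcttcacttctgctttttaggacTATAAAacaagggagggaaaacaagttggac
Il1rn: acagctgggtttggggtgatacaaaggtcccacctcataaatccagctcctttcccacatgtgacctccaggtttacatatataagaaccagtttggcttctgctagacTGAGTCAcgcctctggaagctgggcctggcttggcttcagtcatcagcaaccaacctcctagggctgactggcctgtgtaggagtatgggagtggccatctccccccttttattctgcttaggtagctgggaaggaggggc
The motifs searched on both strands were AP-1 (TGANTCA), kappaB (GGGNNNNTCC), C/EBP (TTGCNNAA), an ETS core (GAGGAAG), CRE (TGACGTCA) and a TATA box (TATAAA), of which none contains another. Il1a had an ETS match at -41 to -35, a TATA match at -32 to -27 and an AP-1 match at -12 to -6, counted from the start. Il1b had only the TATA match, at -31 to -26, and the first Il1rn window had only an AP-1 match at -141 to -135. The window of the third Il1rn start held a kappaB match, GGGTTTTTCC, at -51 to -42, and the Il1bos window held none of the 6 motifs. Among 32851 promoter windows of the same length, 6.75% held the AP-1 letters, 16.5% kappaB, 9.56% C/EBP, 10.6% ETS, 1.55% CRE and 12.4% the TATA letters. A match is a description of letters and not a site of binding, and a window without a match says nothing about the factor.

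Macrophage identity was described with 7 macrophage markers, all of them in the data, whose summed level lay between 18.32 and 19.22 in every library. Lyz2 carried this sum, with a median of 18.11 over libraries against 10.58 to 15.37 for the other markers. A steady sum therefore says little about the other markers. The targeted genes matched the labels, since Elk1 was 6.17 to 6.59 in the 16 Elk1-/-Elk4-/- libraries against 8.55 to 9.49 in all others, and Elk4 was 5.51 to 5.88 against 6.88 to 8.56. The Map3k8[D270A] and Nfkb1[SS/AA] mutations replace amino acids and are not checked by expression. Neutrophil markers (8 of 8 in the data) stood apart in Elk1-/-Elk4-/- cells, with a summed level of 10.04 to 11.04 against 6.24 to 7.74 in WT and 6.14 to 7.54 in Map3k8[D270A] cells. In the other arms it was 7.29 to 8.81 with PD0325901, 7.54 to 8.25 with DMSO, 7.08 to 8.59 with RSKi47 and 6.73 to 8.35 in Nfkb1[SS/AA] cells. Their defining members Ly6g and Elane stayed between -0.24 and 0.95 in every library, near the low end of the scale, and both were highest in Elk1-/-Elk4-/- cells. Dendritic cell markers (4 of 4) summed to 9.75 to 10.17 in Elk1-/-Elk4-/- cells, 10.48 to 11.96 in WT and 12.0 to 12.47 with RSKi47, and fibroblast markers (3 of 3) to 4.3 to 6.18 in WT and 5.3 to 9.43 with RSKi47. The highest fibroblast value came from RSKi47 replicate 4 without LPS, where Col1a1 was 9.03, and this replicate was the farthest from its group at all 3 of its times. Of all libraries, Nfkb1[SS/AA] replicate 2 at 1 h was the farthest from its group (root mean square difference 0.30), ahead of RSKi47 replicate 4 (0.23 to 0.29). In bulk RNA, fewer cells of a type and less RNA per cell cannot be told apart.

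WT and Map3k8[D270A] libraries fell into 2 sets of replicates that the labels do not name: WT replicates 4 to 6 with Map3k8[D270A] 1 to 3, and WT 7 to 9 with Map3k8[D270A] 4 to 6. Across 11946 genes, the difference between the sets in WT correlated with that in Map3k8[D270A] cells at Pearson r of 0.61, 0.66 and 0.57 without LPS and at 0.5 and 1 h. Values within each set are therefore given beside the results that turn on them. At 2 h the second set holds WT replicate 7 alone, so a test against it takes its spread from the other groups, assumes that this library varies like them, and can lose a call through its size of 1. The other arms were compared with the same WT libraries. The labels name no experiment or batch, so for these arms a difference between experiments and one between arms cannot be told apart.

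LPS raised both agonist genes in WT cells from the first time point, and at 1 h Il1b and Il1a had the largest and second largest changes of all 11884 genes tested. Il1b, the inflammasome-processed agonist, was 8.82, 8.87 and 8.95 (lowest, median and highest of 6 libraries) without LPS. At 0.5 h it was 11.17, 11.11 and 11.42 in replicates 4 to 6 and 12.76, 12.37 and 12.63 in replicates 7 to 9. At 1 h it ranged from 14.49 to 15.46 with a median of 15.06, and at 2 h it was 14.56, 14.44, 14.68 and 14.5 in replicates 4 to 7. No library with LPS overlapped the unstimulated libraries, and at 0.5 h the replicate sets did not overlap each other. The difference from unstimulated cells was 3.03 (SE 0.16) at 0.5 h, 6.15 (SE 0.16) at 1 h and 5.66 (SE 0.18) at 2 h, with adjusted p in limma of 1.71e-22, 2.8e-37 and 8.58e-34.

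Il1a, whose product is active without cleavage, went from 6.27, 6.31 and 6.37 (lowest, median, highest) to 7.35, 7.53 and 7.66 in replicates 4 to 6 and 9.19, 8.99 and 9.16 in replicates 7 to 9 at 0.5 h. It ranged from 11.94 to 12.74 with a median of 12.44 at 1 h and was 11.72, 11.52, 11.85 and 11.68 at 2 h. As for Il1b, the 1 h level was the highest, and for Il1a every 1 h library lay above every 2 h library, whereas for Il1b these ranges overlapped. Compared with unstimulated cells, the differences were 2.00 (SE 0.18), 6.08 (SE 0.18) and 5.38 (SE 0.20) at the 3 times. From 1 to 2 h Il1a fell by 0.70 (adjusted p 0.00231) and Il1b fell by 0.48 (adjusted p 0.0163 in limma). The fall in Il1b was -0.76 with WT replicates 4 to 6 and -0.24, not called (adjusted p 0.209), with replicates 7 to 9, of which a single library was taken at 2 h. Without WT replicate 5 the adjusted p for Il1b was 0.057.

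Il1rn, the antagonist gene, rose later than the agonists. Without LPS it was 11.3, 11.7 and 11.95 (lowest, median, highest), then 11.46, 11.71 and 11.88 at 0.5 h, and 11.92, 12.38 and 12.73 at 1 h. At 2 h it was 13.51, 13.63, 14.06 and 12.94 in replicates 4 to 7, above every earlier library. Replicates 4 to 6 lay above replicates 7 to 9 without LPS (11.81 to 11.95 against 11.3 to 11.6), and the same held at 0.5 and 1 h. The difference from unstimulated cells was 0.00 (SE 0.15, 95% interval -0.29 to 0.30) at 0.5 h, 0.67 (SE 0.15, adjusted p 0.000144) at 1 h and 1.86 (SE 0.17, adjusted p 7.2e-15 in limma) at 2 h. From 1 to 2 h Il1rn rose by 1.19 (adjusted p 8.76e-09), while Il1a fell.

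Il1bos was near the low end of the scale without LPS, at 2.14, 2.21 and 2.24, and changed little at 0.5 h, when it was 2.2, 2.42 and 2.54. It was 4.65, 4.49 and 4.62 in replicates 4 to 6 and 3.59, 3.91 and 3.89 in replicates 7 to 9 at 1 h, and 4.71, 4.68, 4.70 and 4.65 at 2 h. Il1bos passed the filter on low values only through libraries with LPS, whereas the other 3 members were above it in every library, so a call on its LPS response is partly built into the choice of tested genes. The limit was reached at 1 h in 6 of 6 WT libraries and 0 of 6 Map3k8[D270A] libraries, so the same holds for its differences from WT. With no filter the adjusted p in limma was 0.393, 1.68e-21 and 6.36e-24 at the 3 times, and no call on Il1bos changed in any comparison. The differences were 0.20 (SE 0.11, adjusted p 0.282) at 0.5 h, 1.99 (SE 0.11, adjusted p 1.93e-22) at 1 h and 2.48 (SE 0.12, adjusted p 6.41e-25 in limma) at 2 h. From 1 to 2 h it rose by 0.50 (adjusted p 0.000471), but the rise was 0.11 and not called with WT replicates 4 to 6 alone.

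Il1a and Il1b were called higher at 0.5 h, and Il1a, Il1b and Il1rn at 1 and at 2 h. Il1bos was called higher at 1 and 2 h as well, under the limit of the filter just given, and later counts of members include it. Of all genes tested, 11.6% were called at 0.5 h, 46.8% at 1 h and 71.5% at 2 h counting either direction, and 7.82%, 23.8% and 34.7% in the upward direction. Between 1 and 2 h 2 members were higher and 2 lower, where 65.3% of genes were called (33.5% higher, 31.7% lower). Markers moved with LPS too, since 2 of 3 dendritic cell markers tested were higher at 1 h (median 0.25) and at 2 h (median 1.31), and of 7 macrophage markers 2 were higher at 1 h and 4 higher and 1 lower at 2 h. Among the dendritic cell markers, Zbtb46 and Ccr7 reached the limit of the filter in 0 of 6 WT libraries without LPS and 4 of 4 at 2 h. A call on their rise is thus partly fixed by the filter. Of 2 fibroblast markers tested 1 was higher at 2 h, 0 of 5 neutrophil markers were called at any time, and the part of these markers in the members' rise was not tested.

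**Figure D1:**
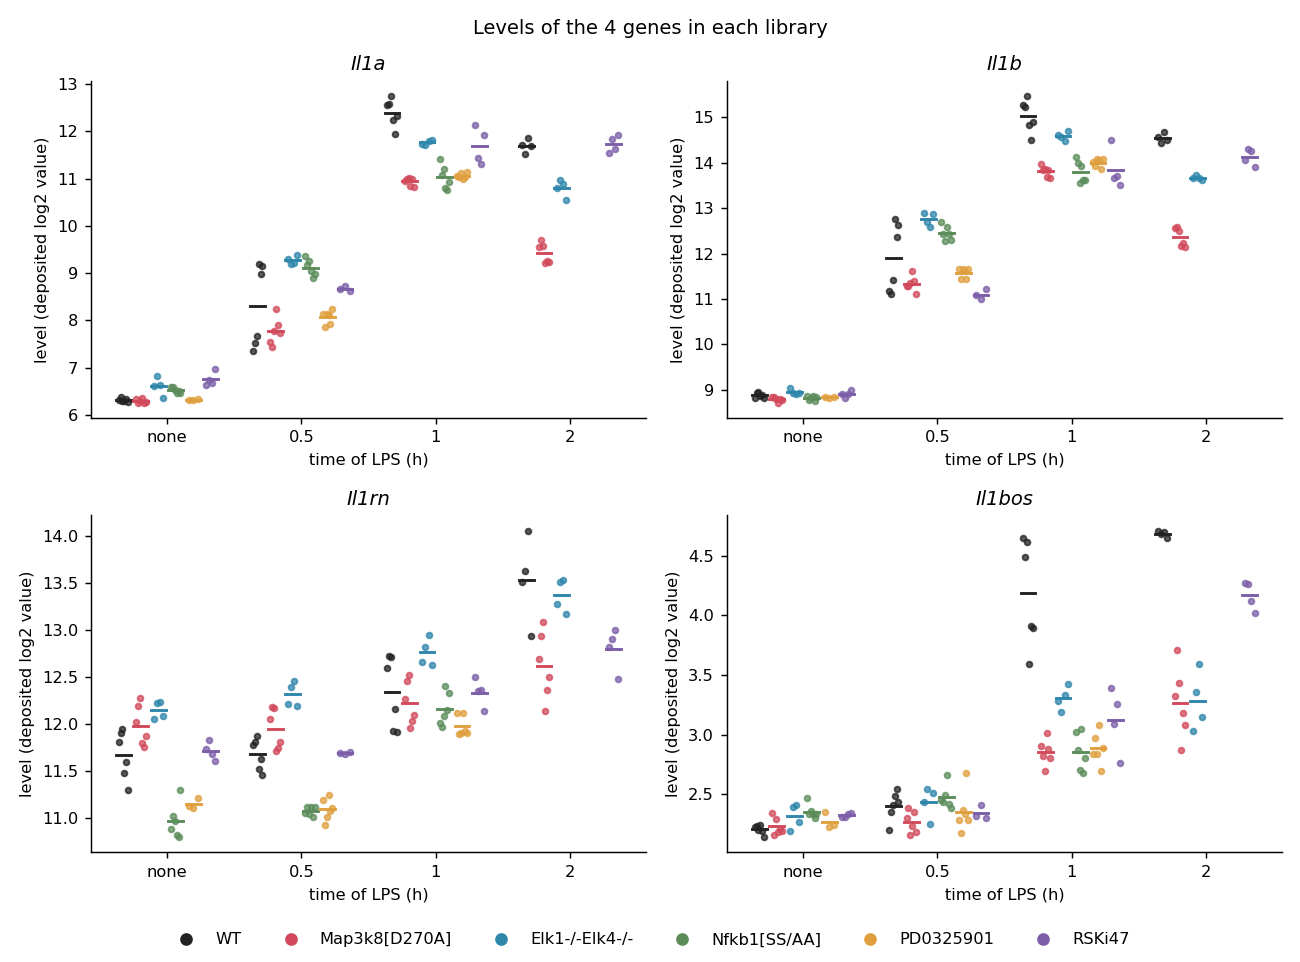
Deposited log2 value of each member in every library by hours of LPS and by arm, one panel per gene, with points for libraries and short lines for group means. The PD0325901 points without LPS are the 10 min libraries. Il1a and Il1b had their highest WT means at 1 h, while Il1rn was highest at 2 h (12.94 to 14.06).

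Without TPL-2 catalytic activity the agonist genes still rose with LPS but to lower levels, and the gap to WT widened from 1 to 2 h. Unstimulated Map3k8[D270A] cells had Il1b at 8.72, 8.80 and 8.85 (lowest, median, highest of 6) and Il1a at 6.26, 6.28 and 6.35. At 1 h Il1b was 13.67, 13.84 and 13.97 and Il1a 10.83, 10.97 and 11.02. At 2 h Il1b was 12.15, 12.36 and 12.59 and Il1a 9.21, 9.40 and 9.69. At both of these times every Map3k8[D270A] library was below every WT library for both genes. The difference from WT in Il1b was -1.22 (SE 0.16, adjusted p 7.97e-08) at 1 h and -2.18 (SE 0.18, adjusted p 2.89e-14) at 2 h. In Il1a it was -1.45 (SE 0.18, adjusted p 2.48e-08) at 1 h and -2.27 (SE 0.20, adjusted p 4.29e-13) at 2 h. By size, the 2 h change of Il1a ranked 4 and that of Il1b 7 among 11884 genes.

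Within each replicate set the later differences kept their direction. At 1 h Il1a differed by -1.63 and Il1b by -1.43 in WT 4 to 6 against Map3k8[D270A] 1 to 3, and by -1.27 and -1.01 in WT 7 to 9 against Map3k8[D270A] 4 to 6. At 2 h the differences were -2.09 and -2.01 in the first set and -2.45 and -2.32 in the second, where WT is a single library.

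At 0.5 h the pooled comparison hid a split between the sets. Il1b in Map3k8[D270A] cells was 11.29 to 11.35 in replicates 1 to 3 and 11.10 to 11.61 in replicates 4 to 6, so the mutant sets overlapped while the WT sets did not. Pooled, Il1b differed from WT by -0.57 (SE 0.16, adjusted p 0.0601) and Il1a by -0.54 (SE 0.18, adjusted p 0.157 in limma). In the first set the differences were 0.08 for Il1b (adjusted p 0.677) and 0.07 for Il1a (adjusted p 0.792). In the second they were -1.22 (adjusted p 7.06e-10) and -1.15 (adjusted p 6.6e-09 in limma). The difference between the sets was not itself tested.

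**Figure D2:**
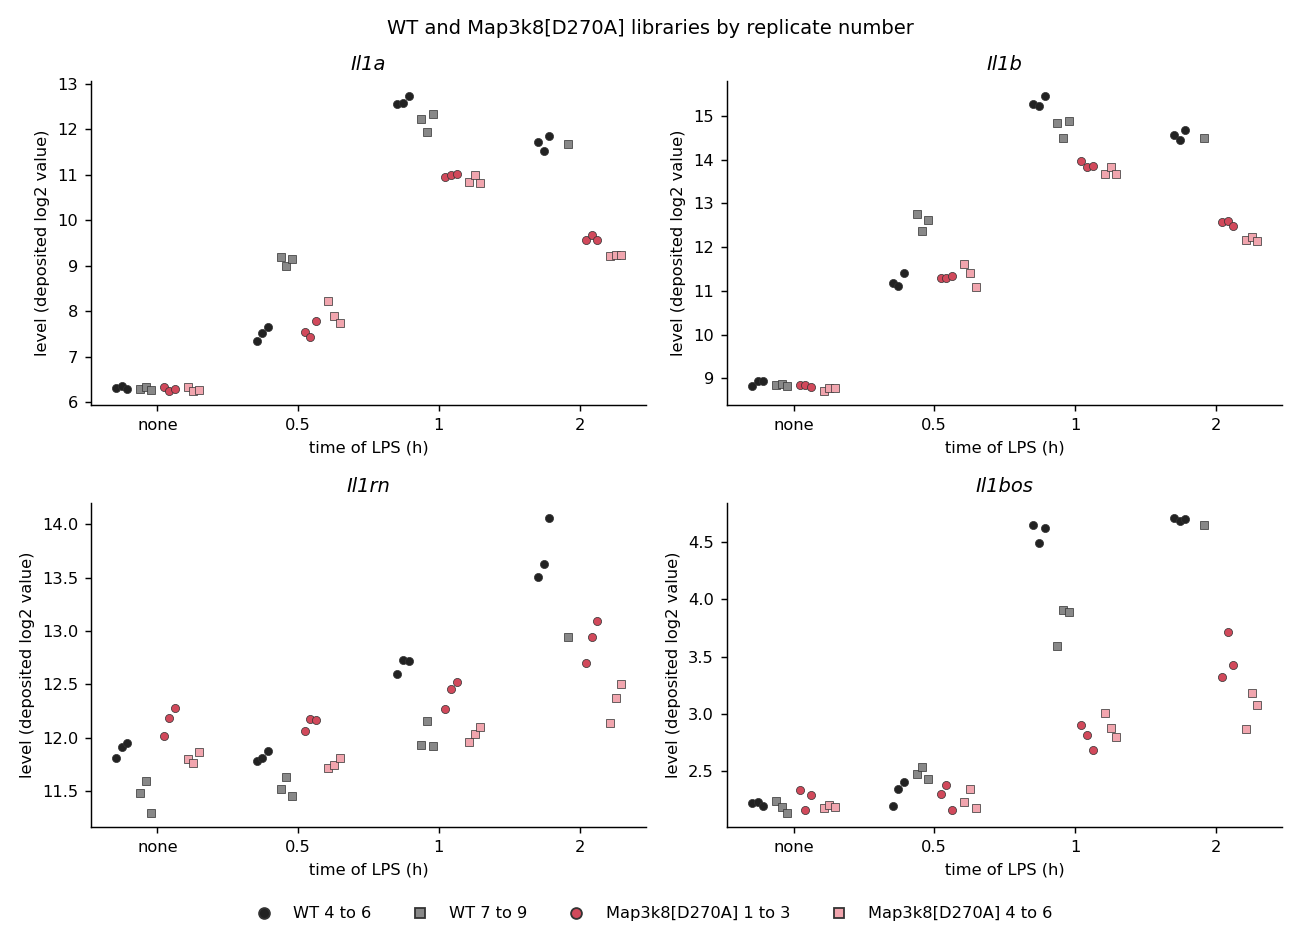
Deposited log2 values of the members in WT and Map3k8[D270A] libraries by hours of LPS, with the 2 replicate sets drawn apart. At 0.5 h WT replicates 7 to 9 lie above replicates 4 to 6 for Il1b (12.37 to 12.76 against 11.11 to 11.42), while the Map3k8[D270A] sets overlap.

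Against the pooled WT libraries Il1rn was called lower in Map3k8[D270A] cells at 2 h and not at the earlier times. It was 11.76, 11.95 and 12.28 without LPS and 11.96, 12.18 and 12.52 at 1 h. At 2 h it was 12.7, 12.94 and 13.09 in replicates 1 to 3 and 12.14, 12.37 and 12.5 in replicates 4 to 6. The lowest WT library at 2 h, replicate 7 at 12.94, lay within the range of the mutant, and the other 3 lay above it. The difference from WT was -0.91 (SE 0.17, adjusted p 1.8e-05) at 2 h, -0.12 (95% interval -0.41 to 0.18, adjusted p 0.721) at 1 h and 0.31 (adjusted p 0.382 in limma) without LPS. At 1 h it was -0.46 and called (adjusted p 0.0215) against WT replicates 4 to 6 and 0.22, not called, against 7 to 9, and within the matched sets it was -0.27 and 0.03, neither called. At 2 h it was -0.83 and -0.61 within the sets, and -0.32 and not called against WT replicate 7 alone, a single library.

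Il1bos in Map3k8[D270A] cells reached 2.69, 2.85 and 3.01 at 1 h. At 2 h it was 3.32, 3.71 and 3.43 in replicates 1 to 3 and 2.87, 3.18 and 3.08 in replicates 4 to 6, all below the 4 WT libraries. Its differences from WT were -1.34 (SE 0.11, adjusted p 6.82e-14) at 1 h and -1.42 (SE 0.12, adjusted p 1.87e-13 in limma) at 2 h. Within the matched sets they were -1.79 in the first and -0.90 in the second at 1 h. At 2 h they were -1.21 and -1.61, the second with a single WT library.

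In this arm 0 of the 4 members were called without LPS and at 0.5 h, 3 were lower at 1 h and 4 at 2 h. At an unadjusted p below 0.05 limma gave 1 member (Il1rn) without LPS and 2 (Il1a and Il1b) at 0.5 h, where 1420 and 1338 of all 11884 genes were below it. The share of all genes called in either direction was 1.44%, 1.37%, 9.79% and 27.7% at the 4 times, and the share lower was 4.64% at 1 h and 13.1% at 2 h. Of 7 macrophage markers 2 were called lower at 1 h and 3 at 2 h (median -0.09), of 3 dendritic cell markers tested 2 were lower at 2 h (median -0.54), and 0 of 5 neutrophil markers were called at either time. Of 2 glial markers tested 1 was lower at 2 h (median -0.31). The part of these markers in the members' differences was not tested.

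With PD0325901, the MKK1/2 inhibitor, Il1a, Il1b and Il1bos were lower than WT at 1 h of LPS against either WT replicate set. Il1rn was called lower against the pooled WT libraries, but it was also below WT with DMSO alone, and its rise from unstimulated inhibitor-treated cells to 1 h differed from that of WT by 0.16 (95% interval -0.22 to 0.54, adjusted p 0.776 in limma). In the 6 PD0325901 libraries at 1 h, Il1b was 13.86, 14.04 and 14.08 and Il1a 11.0, 11.05 and 11.13, with every library below WT. Il1bos was 2.69, 2.87 and 3.08, also below every WT library, and Il1rn was 11.9, 11.92 and 12.12, with 11.9, 11.91 and 11.91 in replicates 2, 3 and 6, just below the lowest WT library at 11.92, and the other 3 within the WT range. The differences from WT were -1.34 (SE 0.15) for Il1a, -1.03 (SE 0.14) for Il1b, -1.31 (SE 0.10) for Il1bos and -0.36 (SE 0.12, adjusted p 0.0134) for Il1rn. The adjusted p in limma of the first 3 were 3.49e-12, 1.28e-09 and 3.43e-21. The Il1rn difference was -0.70 against WT replicates 4 to 6 and -0.02 against replicates 7 to 9, and leaving out WT replicate 4, 5 or 6 took it over the threshold, with values of -0.28 to -0.45 over all libraries left out. By replicate number Il1b was 14.02, 13.92 and 14.07 in PD0325901 replicates 1 to 3 and 14.05, 13.86 and 14.08 in 4 to 6. Il1rn was 12.12, 11.9 and 11.91, then 12.12, 11.93 and 11.91. Whether replicates 4 to 6 repeat the cultures of 1 to 3 is not stated. The SE and p of this arm at both LPS times count all 6 as separate.

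At 0.5 h with PD0325901, Il1rn was 10.93, 11.09 and 11.25, below every WT library, and differed by -0.59 (SE 0.12, adjusted p 7.87e-05). Il1b was 11.44, 11.64 and 11.67, between the WT replicate sets, and differed by -0.33 (SE 0.14, adjusted p 0.0549). Il1a differed by -0.25 (SE 0.15, adjusted p 0.209 in limma). Against WT replicates 4 to 6 these agonist differences were 0.35 and 0.55, and against replicates 7 to 9 they were -1.01 and -1.05, each called. Of the 4 members 1 was thus lower at 0.5 h and 4 at 1 h, where 29.4% and 35.7% of 11971 genes were called in either direction and 15% and 19.3% were lower. All 5 neutrophil markers tested were called higher than WT with PD0325901 at 0.5 and at 1 h, with a median difference of 1.61 at both times. Camp, 1 of them, was below the limit of the filter in every PD0325901 and WT library. Of 3 dendritic cell markers tested 1 was higher at each time, of 7 macrophage markers 1 was lower at 0.5 h and 2 at 1 h, and of 2 glial markers 1 and 2 were lower. The part of these markers in the results was not tested.

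The inhibitor without LPS left the members near their DMSO level. Il1b was 8.85 in each of the 3 DMSO libraries and 8.83 to 8.85 after 10 min of PD0325901. All 4 differences lay between -0.03 and 0.06, the widest 95% interval was -0.39 to 0.37 for Il1b and -0.37 to 0.48 for Il1a, and 0 members were called, also at an unadjusted p below 0.05. In that comparison 0% of 11971 genes were called by limma, and 245 had an unadjusted p below 0.05. Il1rn was nevertheless lower than in untreated WT cells both with DMSO (11.17 to 11.21, difference -0.49, adjusted p 0.00962) and with PD0325901 for 10 min (11.11 to 11.22, difference -0.52, adjusted p 0.0049 in limma), where 23.6% and 25.9% of genes were called and 11.1% and 12.3% were lower. Against WT replicates 7 to 9 alone these differences were -0.28 and -0.31, neither called. At 40 and 70 min of PD0325901 it was 11.02 to 11.15 and 11.02 to 11.14, and 0 members were called against 10 min (also at an unadjusted p below 0.05), where limma called 3.58% and 6.09% of genes. No library with DMSO and LPS was analysed here, so the solvent's part in the comparisons with LPS was not tested.

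Nfkb1[SS/AA] cells showed a higher level of the agonist genes at 0.5 h than the pooled WT libraries and a lower one at 1 h. Il1b was 12.27, 12.44 and 12.69 at 0.5 h and 13.56, 13.77 and 14.13 at 1 h, the latter below every WT library. Il1a was 8.89, 9.10 and 9.37 at 0.5 h and 10.76, 10.99 and 11.42 at 1 h. At 0.5 h the mutant values overlapped those of WT replicates 7 to 9 and lay above those of 4 to 6. The 0.5 h differences were 0.55 (SE 0.14, adjusted p 0.000915) for Il1b and 0.80 (SE 0.15, adjusted p 1.09e-05 in limma) for Il1a. Against WT replicates 7 to 9 they became -0.13 and 0.00, neither called. At 1 h the differences were -1.23 (SE 0.14, adjusted p 9e-13) and -1.36 (SE 0.15, adjusted p 7.11e-13 in limma), and they were -0.94 and -1.14 against WT replicates 7 to 9. Without Nfkb1[SS/AA] replicate 2, the library that stood farthest from its group, they were -1.26 and -1.37.

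Il1rn was lower in Nfkb1[SS/AA] cells before LPS and at 0.5 h. It was 10.8, 10.93 and 11.3 without LPS and 11.01, 11.09 and 11.12 at 0.5 h, and rose to 11.97, 12.12 and 12.41 at 1 h. The differences from WT were -0.71 (SE 0.12, adjusted p 1.32e-06), -0.60 (SE 0.12, adjusted p 3.9e-05) and -0.18 (95% interval -0.42 to 0.06, adjusted p 0.224 in limma). The 1 h difference was -0.52 and called (adjusted p 0.000314) against WT replicates 4 to 6, and 0.16 and not called against 7 to 9. Against the same sets the difference was -0.92 and -0.49 without LPS and -0.74 and -0.45 at 0.5 h, all called. Il1bos was 2.68, 2.84 and 3.05 at 1 h, below every WT library, a difference of -1.34 (SE 0.10, adjusted p 2.08e-22). Of the 4 members 1 was lower without LPS, 2 were higher and 1 lower at 0.5 h, and 3 were lower at 1 h. Of all genes 32%, 32.3% and 42.5% were called at these times. By direction, 15.1% of genes were lower without LPS, 16.7% higher and 15.6% lower at 0.5 h, and 21.9% lower at 1 h. Of the 5 neutrophil markers tested 3 were called higher at 1 h (median 0.51) and 0 at the earlier times. Camp, 1 of the 5, was below the limit of the filter in every library of this arm and of WT. Of 7 macrophage markers 2 were higher and 2 lower at each time, of 3 dendritic cell markers tested 1 was higher and 1 lower at 1 h, and of 2 glial markers 2 were lower without LPS and 1 at 0.5 and 1 h. The part of these markers was not tested.

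At 1 h the PD0325901 and Nfkb1[SS/AA] arms were each compared with Map3k8[D270A] cells, without using WT. PD0325901 differed from Map3k8[D270A] by 0.12 (95% interval -0.18 to 0.42) for Il1a, 0.19 (-0.08 to 0.46) for Il1b, 0.03 (-0.16 to 0.23) for Il1bos and -0.24 (-0.48 to 0.00) for Il1rn. Nfkb1[SS/AA] differed from Map3k8[D270A] by 0.09 (-0.21 to 0.39), -0.01 (-0.28 to 0.26), 0.00 (-0.19 to 0.19) and -0.06 (-0.30 to 0.17) for the same genes in that order. None of these 8 differences was called by limma, 1 had an unadjusted p below 0.05 (Il1rn with PD0325901, 0.0458), and it passed the threshold without Map3k8[D270A] replicate 4. Of all genes, 40.7% were called with PD0325901, and with Nfkb1[SS/AA] 22.7% were higher and 24.6% lower. At 0.5 h Nfkb1[SS/AA] cells exceeded Map3k8[D270A] cells by 1.34 in Il1a (adjusted p 2.13e-12) and by 1.11 in Il1b (adjusted p 5.3e-11), and Il1rn was lower by -0.86 (adjusted p 4.45e-09 in limma), where 39.5% of genes were called.

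Elk1-/-Elk4-/- cells also had lower agonist transcripts at 1 and 2 h, by less than Map3k8[D270A] cells. In replicates 1 to 4 Il1b was 12.9, 12.7, 12.59 and 12.87 at 0.5 h, 14.61, 14.57, 14.48 and 14.69 at 1 h, and 13.66, 13.72, 13.67 and 13.61 at 2 h. At 1 h replicate 3 lay just below the lowest WT library (14.49) and the others lay within the WT range, and at 2 h all were below WT. The difference from WT in Il1b was 0.86 (SE 0.18, adjusted p 0.00012) at 0.5 h, -0.44 (SE 0.18, adjusted p 0.0352) at 1 h and -0.88 (SE 0.20, adjusted p 0.000201 in limma) at 2 h. The 0.5 h difference was 1.53 against WT replicates 4 to 6 and 0.18, not called, against 7 to 9. The 1 h difference was not called against WT replicates 7 to 9 (-0.15), nor when any of WT replicates 4 and 6 or Elk1-/-Elk4-/- replicates 1 to 4 was left out, with values of -0.55 to -0.36 over all libraries left out.

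In these cells Il1a was 9.3, 9.19, 9.22 and 9.38 at 0.5 h, 11.73, 11.72, 11.79 and 11.82 at 1 h, and 10.79, 10.96, 10.89 and 10.55 at 2 h. At 1 and 2 h every value was below every WT value. Its differences from WT were 0.96 (SE 0.20, adjusted p 0.000142), -0.63 (SE 0.20, adjusted p 0.00823) and -0.89 (SE 0.22, adjusted p 0.000749 in limma) at 0.5, 1 and 2 h. Its 0.5 h difference was 1.76 against WT replicates 4 to 6 and 0.16, not called, against 7 to 9. At 1 h Il1a differed by -0.86 against 4 to 6 and by -0.40 against 7 to 9, both called. Without LPS it differed by 0.29 and was not called against the pooled WT libraries (adjusted p 0.233), and by 0.28 and 0.30 against each set, both called.

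Il1rn was higher than in WT without LPS, at 12.06, 12.23, 12.24 and 12.09, and no longer differed detectably at 2 h, at 13.28, 13.51, 13.54 and 13.17. All unstimulated values were above the WT libraries, whereas at 2 h the ranges overlapped. The differences were 0.48 (adjusted p 0.0129), 0.64 (adjusted p 0.00143), 0.42 (adjusted p 0.0288) and -0.16 (95% interval -0.52 to 0.20, adjusted p 0.481 in limma) at the 4 times. Without LPS and at 1 h the difference was not called against WT replicates 4 to 6 (0.27 and 0.08). At 1 h the call was also lost when WT replicate 7, 8 or 9 or Elk1-/-Elk4-/- replicate 2 or 3 was left out, with values of 0.34 to 0.50 over all libraries left out.

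Il1bos was 3.28, 3.19, 3.33 and 3.42 at 1 h and 3.03, 3.36, 3.59 and 3.15 at 2 h, all below WT. Against the pooled WT libraries it was the member with the largest differences in this arm at 1 and 2 h, -0.89 (SE 0.12, adjusted p 4.48e-08) and -1.4 (SE 0.14, adjusted p 2.63e-12 in limma). At 1 h its difference was -1.29 against WT replicates 4 to 6 and -0.49 against 7 to 9, where that of Il1rn was larger at 0.76. Of the 4 members 1 was higher without LPS, 3 were higher at 0.5 h, 1 was higher and 3 lower at 1 h, and 3 were lower at 2 h. Of all genes 51.8%, 44.4%, 53.4% and 50.8% were called at these times. By direction, 27.2% were higher without LPS, 22.4% higher at 0.5 h, 27.2% higher and 26.2% lower at 1 h, and 23.1% lower at 2 h. All 5 neutrophil markers tested were called higher at every time in this arm. Camp, 1 of them, passed the filter on low values only through these libraries (16 of 16, with 0 in every other arm). Its call is thus partly fixed by the filter. Of 3 dendritic cell markers tested Itgax was lower at every time (-1.49 to -1.41 through 1 h and -1.63 at 2 h) and carried the low summed level, Ccr7 was higher at 0.5 h (0.30), and all 3 were lower at 2 h. The 2 glial markers tested were lower at every time, and of 7 macrophage markers 1 was higher and 2 or 3 lower. Of 2 fibroblast markers tested 1 was higher at 0.5 and 1 h, and 1 was higher and 1 lower at 2 h. The part of these markers was not tested.

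Set directly against Map3k8[D270A] cells at 2 h, Elk1-/-Elk4-/- cells were higher by 1.38 in Il1a (SE 0.17, adjusted p 2.85e-11), 1.3 in Il1b (SE 0.15, adjusted p 5.1e-12) and 0.75 in Il1rn (SE 0.13, adjusted p 1.52e-06 in limma). Il1bos differed by 0.02 (95% interval -0.20 to 0.23, adjusted p 0.905), so it was the only member not called between these arms at 2 h. At 1 h all 4 members were higher in Elk1-/-Elk4-/- cells, by 0.82 for Il1a, 0.78 for Il1b, 0.54 for Il1rn and 0.45 for Il1bos. Of all genes 53.3% were called at 1 h and 51.2% at 2 h.

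**Figure D3:**
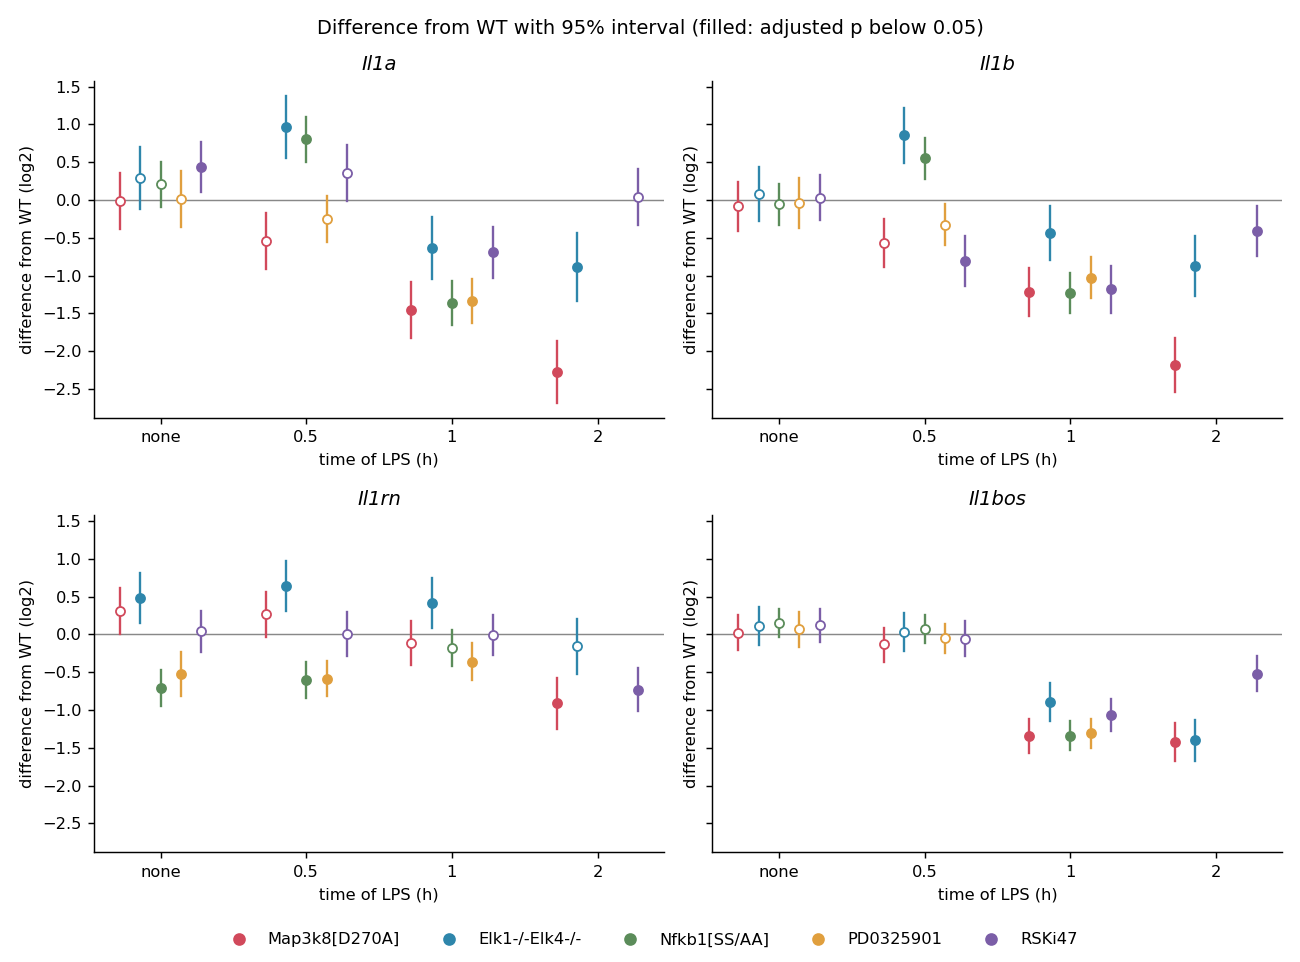
Log2 difference from WT of each member in each arm by hours of LPS, with 95% intervals from limma, and filled points for adjusted p below 0.05. At 1 h Il1a, Il1b and Il1bos were below WT in all 5 arms, and at 2 h Map3k8[D270A] cells had the lowest Il1a and Il1b differences (-2.27 and -2.18).

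With RSKi47 and the pooled WT libraries, Il1b was called lower than WT at each LPS time and Il1a at 1 h. At 0.5 and 2 h these calls depended on the WT set, and the difference between the genes was not tested. In replicates 1 to 4 Il1b was 11.09, 10.99 and 11.21 at 0.5 h, 14.51, 13.66, 13.71 and 13.51 at 1 h, and 14.05, 14.31, 14.26 and 13.91 at 2 h. At 1 h replicates 2 to 4 lay below WT and replicate 1 lay just above the lowest WT library, and at 2 h all 4 lay below WT. The differences were -0.81 (SE 0.17, adjusted p 2.86e-05), -1.18 (SE 0.15, adjusted p 1.65e-10) and -0.41 (SE 0.17, adjusted p 0.0313 in limma). The 0.5 h difference was -0.13 and not called against WT replicates 4 to 6, and -1.49 against replicates 7 to 9. At 2 h it was not called without RSKi47 replicate 4 (-0.34), without RSKi47 replicate 1 (-0.38) or without WT replicate 6, within a range of -0.47 to -0.34. Against WT replicate 7 alone, a single library, it was -0.36 and not called (adjusted p 0.0908). Without RSKi47 replicate 4, which stood apart, the 1 h difference was -1.07 (adjusted p 6.06e-08).

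Il1a was 6.63, 6.73, 6.67 and 6.98 without LPS, 8.67, 8.73 and 8.61 at 0.5 h, 12.14, 11.43, 11.30 and 11.92 at 1 h, and 11.55, 11.83, 11.63 and 11.92 at 2 h with RSKi47. All unstimulated values were above WT, and the 2 h values overlapped those of WT. The differences were 0.44 (SE 0.17, adjusted p 0.0225), 0.35 (SE 0.18, adjusted p 0.107), -0.69 (SE 0.17, adjusted p 0.000302) and 0.04 (95% interval -0.33 to 0.41, adjusted p 0.872 in limma). Without RSKi47 replicate 4 the unstimulated difference was 0.36 with an adjusted p of 0.0936, and the 1 h difference was -0.77. At 0.5 h the sign depended on the WT set, with 1.15 against replicates 4 to 6 and -0.45 against 7 to 9, both called. At 1 h the difference was -0.92 and -0.47 against the same sets, both called.

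Il1rn with RSKi47 stayed close to WT through 1 h and was lower at 2 h, at 12.82, 12.91, 13 and 12.48. Replicate 3 lay above the lowest WT library at 2 h and the others lay below. The differences were 0.04, 0.01 and -0.01 without LPS and at 0.5 and 1 h, although at 1 h it was -0.35 against WT replicates 4 to 6 and 0.33 against 7 to 9, both called. At 2 h the difference was -0.73 (SE 0.15, adjusted p 1.57e-05 in limma). That value was -0.14 and not called against the single library of WT replicate 7, and -0.62 without RSKi47 replicate 4. Il1bos was 3.39, 3.09, 3.26 and 2.76 at 1 h and 4.27, 4.26, 4.12 and 4.02 at 2 h, below every WT library at both times. Its differences were -1.07 (SE 0.11, adjusted p 1.24e-14) and -0.52 (SE 0.12, adjusted p 0.000111 in limma). The 1 h difference was -1.47 against WT replicates 4 to 6 and -0.67 against 7 to 9, both called.

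Of the 4 members 1 was higher without LPS, 1 was lower at 0.5 h, and 3 were lower at 1 h and at 2 h with RSKi47. Of all genes 53%, 48.2%, 52.8% and 52.1% were called at these times, 26.8% were higher without LPS, and 24.5%, 26.3% and 24.6% were lower at the 3 LPS times. Of 5 neutrophil markers tested 4 were called higher than WT without LPS and at 0.5 h and 5 at 1 and 2 h, with medians of 0.90, 0.67, 0.92 and 1.51. Camp, 1 of the 5, was below the limit of the filter in every RSKi47 and WT library. The summed level of the dendritic cell markers was above WT in every RSKi47 library. Of the 3 tested, Itgax was higher at every time (0.71 to 0.89) and Ccr7 through 1 h (0.41 to 0.62), while Zbtb46 was lower at 1 and 2 h (-0.32 and -0.53). Of 3 fibroblast markers tested 3 were higher without LPS and 2 at each LPS time, with 1 lower at 2 h. Of these, Col1a1 passed the filter on low values almost only through RSKi47 libraries (15 of 17 that reached it). Of 7 macrophage markers 2 or 3 were higher and 2 lower at each time, and of 2 glial markers 1 was higher and 1 lower through 1 h and 2 were lower at 2 h. The part of these markers in the members' differences was not tested.

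The inhibitors were compared at matched LPS times. RSKi47 exceeded PD0325901 in Il1a by 0.60 (SE 0.18, adjusted p 0.00447) at 0.5 h and 0.64 (SE 0.17, adjusted p 0.000756) at 1 h. In Il1b it was lower by -0.48 (SE 0.17, adjusted p 0.0123) at 0.5 h and differed by -0.16 (95% interval -0.46 to 0.15, adjusted p 0.396 in limma) at 1 h. Without RSKi47 replicate 1 the Il1b difference at 1 h was -0.38 and called, and without RSKi47 replicate 2 the 0.5 h difference was not called. Il1rn was higher with RSKi47 by 0.59 and 0.35, and of all genes 49.5% and 53.9% were called at the 2 times. Against Map3k8[D270A] cells at 2 h, RSKi47 was higher by 2.31 in Il1a, 1.77 in Il1b and 0.90 in Il1bos, and differed by 0.18 (95% interval -0.08 to 0.45) in Il1rn, where 50.6% of genes were called. The inhibitors differed in dose, and the labels do not say whether they were used in the same experiment, so target, dose and experiment cannot be told apart.

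Il1b minus Il1a within each library was compared only between groups, because it also holds the difference in gene length. In WT it was 2.52 to 2.67 without LPS, 3.37 to 3.83 at 0.5 h, 2.55 to 2.72 at 1 h and 2.82 to 2.91 at 2 h. With RSKi47 it was 2.02 to 2.27, 2.27 to 2.61, 1.59 to 2.40 and 1.99 to 2.63, below the WT range at all 4 times. In Map3k8[D270A] cells it was 2.37 to 2.58, 3.36 to 3.85, 2.83 to 3.03 and 2.89 to 3.01, overlapping WT or above it. In WT, Map3k8[D270A], Elk1-/-Elk4-/-, Nfkb1[SS/AA] and PD0325901 cells the mean of this quantity was 3.34 to 3.59 at 0.5 h, whereas with RSKi47 it was 2.43. The values are given as a description with no test.

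Il1b minus Il1rn, agonist against antagonist, also showed the order of the members in time. Its mean (± SD) in WT was -2.80 ± 0.22 without LPS (n = 6), 0.23 ± 0.92 at 0.5 h (n = 6), 2.69 ± 0.25 at 1 h (n = 6) and 1.01 ± 0.40 at 2 h (n = 4). The large SD at 0.5 h came from the replicate sets, with -0.59 in replicates 4 to 6 and 1.05 in 7 to 9. In Map3k8[D270A] cells the mean was -3.19, -0.60, 1.58 and -0.26 at the 4 times, and in Elk1-/-Elk4-/- cells it was -3.20, 0.45, 1.82 and 0.29. With RSKi47 it was -2.81, -0.59, 1.51 and 1.33, so at 2 h it was 0.62 to 1.56 in WT libraries, 1.22 to 1.43 with RSKi47 and -0.60 to 0.03 in Map3k8[D270A] libraries. Elk1-/-Elk4-/- libraries were also below WT at 2 h (0.13 to 0.43). At 1 h every arm lay below the WT libraries (2.33 to 2.97). It was 1.33 to 1.80 in Map3k8[D270A], 1.53 to 2.06 in Elk1-/-Elk4-/- and 1.28 to 2.12 in Nfkb1[SS/AA] cells. With PD0325901 it was 1.90 to 2.18 and with RSKi47 1.31 to 2.01.

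**Figure D4:**
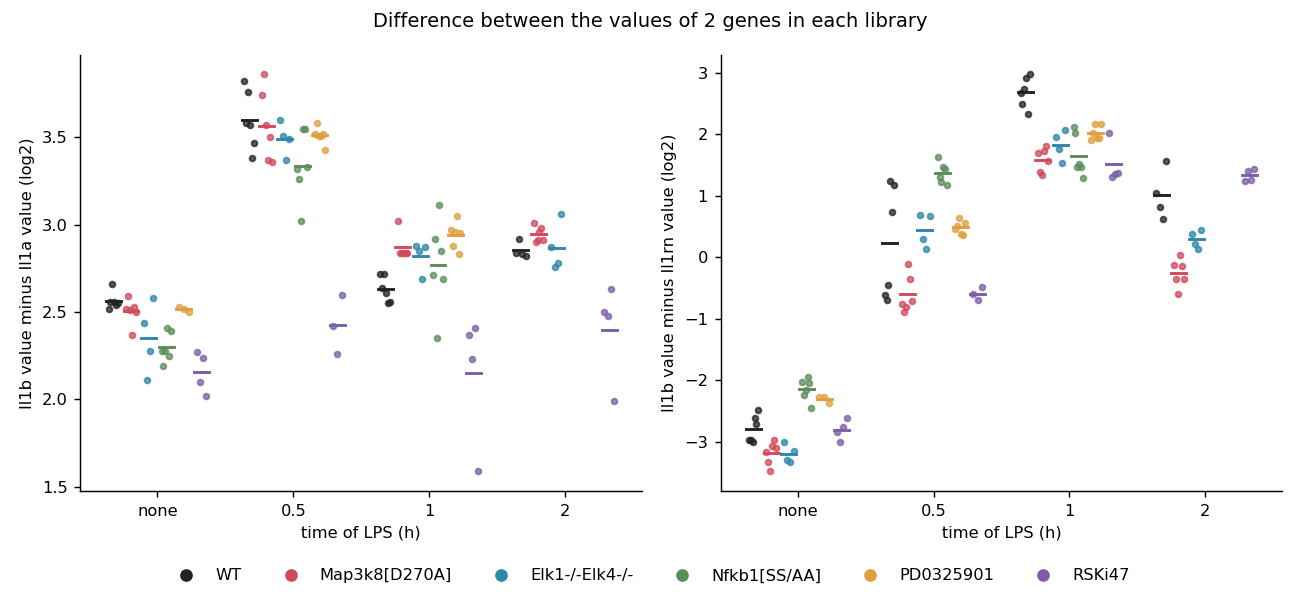
Il1b minus Il1a and Il1b minus Il1rn in every library by hours of LPS and by arm, on the deposited log2 scale. RSKi47 libraries lie below WT for Il1b minus Il1a at all 4 times, and Nfkb1[SS/AA] libraries do so without LPS. For Il1b minus Il1rn the libraries of every other arm lie below WT at 1 h. At 2 h those of Map3k8[D270A] and Elk1-/-Elk4-/- cells do.

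The rest of the interleukin-1 pathway was described with 4 fixed lists holding 36 genes in the data. In WT cells at 2 h, 3 of 3 other ligands and binding proteins were called higher, 4 of 7 receptors higher and 2 lower, 10 of 13 signalling genes higher and 2 lower, and 8 of 10 processing and release genes higher and 0 lower. Over all genes 71.5% were called and 34.7% were higher. The list medians were 0.60, 0.38, 0.57 and 0.49, against -0.02 over all genes. Of the examples, Nlrp3, the sensor of the caspase-1 inflammasome, rose by 0.81, 3.21 and 2.16 at 0.5, 1 and 2 h. Peli1, a ubiquitin ligase of the receptor pathway, rose by 3.15 at 2 h, and Casp4 (caspase-11 in mice) by 2.40. Il1r1, the signalling receptor, rose by 1.69 at 2 h, its decoy partner Il1r2 by 0.55 and the accessory chain Il1rap by 0.38, whereas Tab1, an adaptor of the kinase TAK1, fell by 1.19 and the interleukin-33 receptor Il1rl1 fell by 0.61. At 1 h the counts were 1 higher of 3, 4 higher of 7, 8 higher and 2 lower of 13, and 4 higher and 1 lower of 10, where 46.8% of all genes were called and 23.8% were higher. Il36g, 1 of the ligands, was called at both times. It reached the limit of the filter in 0 of 22 WT libraries and was tested through Elk1-/-Elk4-/- libraries, so its calls are a description.

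**Figure D5:**
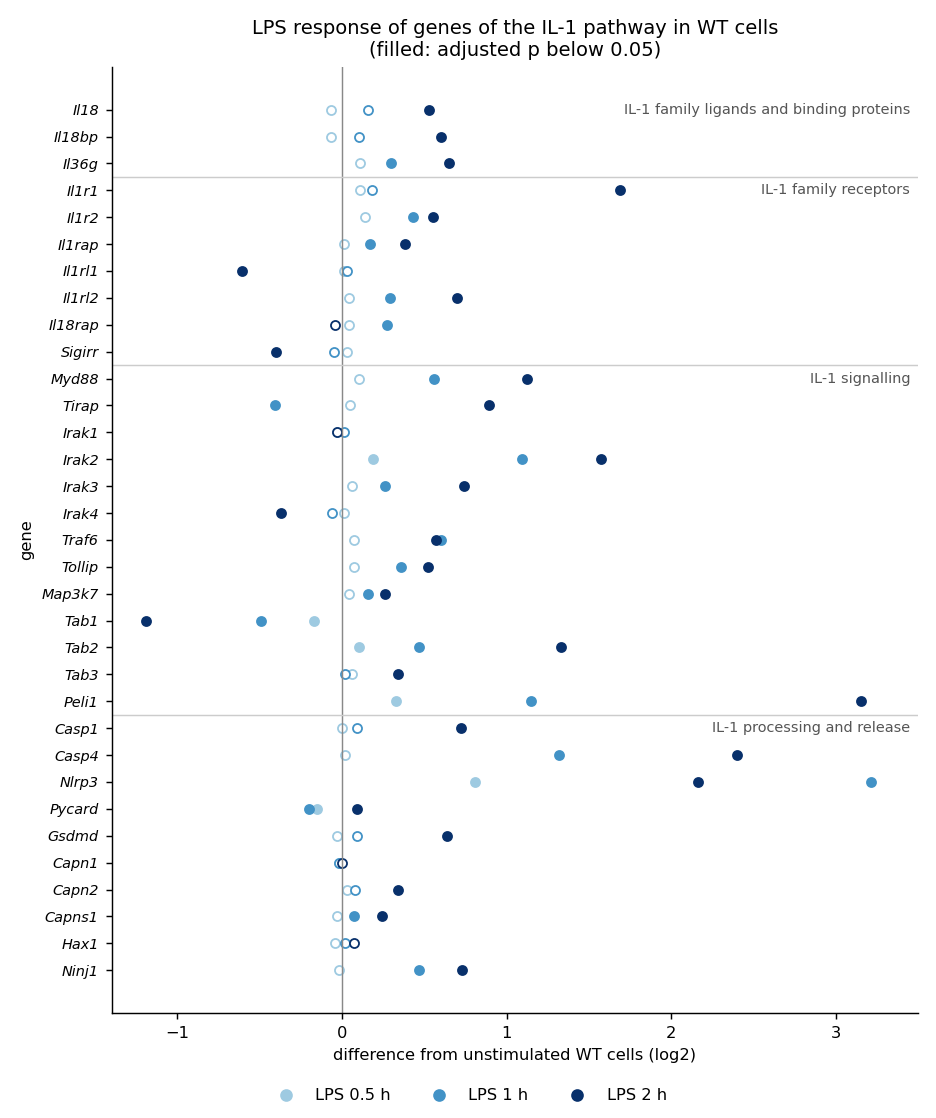
Difference from unstimulated WT cells (deposited log2 scale) of each tested gene of the fixed interleukin-1 lists at 0.5, 1 and 2 h of LPS, with filled points for adjusted p below 0.05. Nlrp3 was highest at 1 h (3.21), while Il1r1 (1.69) and Peli1 (3.15) were highest at 2 h.

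In Map3k8[D270A] cells 0 genes of the 4 lists were called without LPS by limma, and 2 had an unadjusted p below 0.05, where 1.44% of all genes were called and 1420 of 11884 were below that p. At 0.5 h the only call was Nlrp3 at -0.34 (adjusted p 0.0124), where 1.37% of all genes were called. At 1 h Nlrp3 was lower by -0.76 (adjusted p 1.52e-10) and the adaptor Tirap by -0.14 (adjusted p 0.0294), with no other call, where 9.79% of all genes were called. At 2 h 0 of 3 ligands were called, 2 of 7 receptors were lower, 2 of 13 signalling genes were higher and 3 lower, and 2 of 10 processing genes were lower, where 27.7% of all genes were called and 13.1% were lower. Il1r1 had the largest of these changes, -0.75 (adjusted p 3.67e-06 in limma), and Nlrp3 was -0.34, Tirap -0.30 and Tab1 0.17. Il1r2 and Il1rap each differed by -0.10 and were not called.

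Il1r1 was also lower at 2 h in the other arms taken at that time, by -1.18 in Elk1-/-Elk4-/- cells (adjusted p 3.19e-10) and by -1.26 with RSKi47 (adjusted p 8.51e-16 in limma). Nlrp3 at 1 h was lower by -0.45 in Nfkb1[SS/AA] cells, -0.46 with PD0325901 and -0.56 with RSKi47, and with RSKi47 it was higher by 0.42 at 2 h. In Elk1-/-Elk4-/- cells Il36g, an interleukin-36 agonist whose gene lies near Il1rn, was higher by 1.51 at 1 h and 1.38 at 2 h, and Ninj1, which acts in membrane rupture, was lower by -0.82 and -0.74. Il36g reached the limit of the filter in all 8 Elk1-/-Elk4-/- libraries at these times and in 0 WT libraries, so its difference there is partly fixed by the filter and is a description. In that arm at 2 h 3 of 3 ligands were higher, Il36g among them, 3 of 7 receptors lower, 4 of 13 signalling genes higher and 2 lower, and 3 of 10 processing genes higher and 2 lower, where 50.8% of all genes were called. At 1 h the ligands had 3 higher, the receptors 2 higher and 2 lower, the signalling genes 6 higher and 1 lower, and the processing genes 2 higher and 4 lower, where 53.4% of all genes were called.

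In Nfkb1[SS/AA] cells at 1 h 1 of 3 ligands was higher (Il36g, 0.25), 2 of 7 receptors were lower, 3 of 13 signalling genes were higher and 3 lower, and 3 of 10 processing genes were higher and 2 lower, where 42.5% of all genes were called and 21.9% were lower. Il36g reached the limit of the filter there in 1 of 6 libraries, against 0 of 6 in WT, so its value is a description. Examples besides Nlrp3, given above, were -0.88 for Il1rl1, 0.42 for Peli1 and -0.23 for Tirap, with Casp1 at 0.19. With PD0325901 at 1 h 1 of 3 ligands and 1 of 7 receptors were higher, 3 signalling genes were higher and 3 lower, and 4 processing genes were higher and 2 lower, where 35.7% of all genes were called. The examples were Peli1 at 0.52, Il36g at 0.36, Il1rap at 0.19, Gsdmd, the pore-forming gasdermin, at 0.17 and Irak2 at -0.15. Il36g was below the limit of the filter in every PD0325901 library, so its value here too is a description. With RSKi47 at 1 h no ligand was called, 2 receptors were higher and 3 lower, 4 signalling genes were higher and 3 lower, and 1 processing gene was higher and 5 lower, where 52.8% of all genes were called. Il1rl1 differed by -1.48 and Il1r2 by 0.50 there, and at 2 h Pycard, the inflammasome adaptor ASC, differed by -0.74. Il1r2 ranged from 3.56 to 5.61 in the RSKi47 libraries at 1 h, against 3.25 to 4.03 in WT, and 5.61 was the highest of all libraries. At 2 h with RSKi47 1 ligand was lower, 1 receptor was higher and 3 lower, 3 signalling genes were higher and 3 lower, and 2 processing genes were higher and 6 lower, where 52.1% of all genes were called.

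Before LPS and at 0.5 h the lists also held called genes in several arms. In Elk1-/-Elk4-/- cells without LPS 3 ligands were higher, 4 receptors higher and 1 lower, 5 signalling genes higher, and 3 processing genes higher and 3 lower, with Il18bp, the decoy of interleukin-18, at 1.12, Il18rap at 0.50, Tirap at 0.36, Casp4 at 0.50 and Ninj1 at -0.80, where 51.8% of all genes were called. At 0.5 h the same lists had 3 higher, 3 higher and 1 lower, 5 higher and 2 lower, and 3 higher and 3 lower, where 44.4% of all genes were called. Il36g was among the ligands called at both times, but it was below the limit of the filter in every Elk1-/-Elk4-/- library then. Nfkb1[SS/AA] cells had 1 ligand higher, 2 receptors lower, 6 signalling genes higher, and 3 processing genes higher and 3 lower without LPS, with Il1rl1 at -0.93 and Tollip, an inhibitory adaptor, at 0.27, where 32% of all genes were called. With RSKi47 and no LPS 1 ligand was lower, 2 receptors were higher and 3 lower, 8 signalling genes higher, and 3 processing genes higher and 4 lower, with Il1rl1 at -1.5, Pycard at -0.51 and Irak2 at 0.46, where 53% of all genes were called. Il1r1 was not called in these 3 arms at 0.5 h.

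Genes within 250 kb of a member were examined next, and 10 of them passed the filter on low values. Gm14023, a noncoding gene that overlaps Il1a, rose by 0.71 (adjusted p 1.08e-06) at 1 h in WT cells and by 0.19 (adjusted p 0.202) at 2 h. At 1 h it was lower than WT in every arm, by -0.69 in Map3k8[D270A], -0.80 with PD0325901, -0.60 in Nfkb1[SS/AA], -0.43 in Elk1-/-Elk4-/- and -0.34 with RSKi47. Its values lay near the limit of the filter, which 5 of 6 WT libraries reached at 1 h (3.3 to 4.4). Of the Map3k8[D270A] libraries 2 of 6 reached it and with PD0325901 0 of 6 (2.87 to 3.29). These differences are thus partly fixed by the filter and are a description. Slc20a1, a phosphate transporter gene 88.0 kb from Il1a, rose by 0.79 at 1 h in WT cells and was lower at 1 h by -0.60 in Map3k8[D270A] cells (adjusted p 2.84e-12) and by -0.73 with PD0325901 (adjusted p 5.59e-21 in limma). It was also lower by -0.61 in Elk1-/-Elk4-/- and -0.41 in Nfkb1[SS/AA] cells, and differed by -0.11 with RSKi47 (adjusted p 0.112). Psd4, 16.1 kb from Il1rn, rose by 0.57 in WT cells at 2 h and was lower there by -0.61 in Map3k8[D270A] cells and by -0.47 with RSKi47, and differed by -0.13 in Elk1-/-Elk4-/- cells (adjusted p 0.0536). The other neighbours tested were Ttl, Polr1b, Chchd5, Ckap2l, F830045P16Rik, Sirpa and Il1f9, the last being the same gene as Il36g above. Some neighbours moved unlike the agonist genes. Chchd5 differed from unstimulated WT cells by -0.51 at 1 h and -0.61 at 2 h, and Ttl by -0.13 and 0.64. Psd4 differed by -0.21 at 1 h and Slc20a1 by -0.33 at 2 h. With RSKi47 Slc20a1 was above WT by 0.21 at 2 h.

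The genes whose pattern was most like each member were taken by Pearson r over the means of the 25 groups, as a description without a test, and the groups share LPS times and, in the inhibitor arms, WT cells. For Il1a they were Il1b (0.983), Mex3c (0.980), Nlrp3 (0.978), Pde4b (0.976) and Ptgs2 (0.975). For Il1b they were Il1a (0.983), Ptgs2 (0.982), Zc3h12a (0.976), Pde4b (0.973) and Mex3c (0.970), so Ptgs2, Pde4b and Mex3c stood in both lists. For Il1bos they were Map2k3 (0.954), Tnfsf4 (0.938), Spaca6 (0.931), Kcna3 (0.930) and Bcl2a1c (0.924), and for Il1rn Sec62 (0.940), Cul3 (0.935), Spred1 (0.934), Lims1 (0.928) and Ly9 (0.926). Between members r was 0.703 for Il1b and Il1rn, 0.730 for Il1a and Il1rn, 0.769 for Il1b and Il1bos, 0.775 for Il1rn and Il1bos and 0.819 for Il1a and Il1bos. The r of Il1bos with Il1b, which it overlaps, was below that of Il1a with Il1b.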

How the data were processed

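RNA of 119 libraries was sequenced, and the authors deposited 1 table of normalized log2 values per gene and library. The submitters' processing notes name STAR 2.5.1b, RSEM 1.2.29, DESeq2 1.10.1 and the mm10 genome. The sources used here do not state the transformation behind the log2 values. The study's methods describe strand-specific biological replicate libraries and a typical read yield, with no depth per library.

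Groups came from the labels. 1 value above 25 was set missing, and none belonged to a member. WT, Map3k8[D270A] and Elk1-/-Elk4-/- libraries were fitted together (11884 genes that reached 10 after back-transformation in 4 or more libraries). All 119 libraries were fitted together for every comparison with Nfkb1[SS/AA], an inhibitor, or between arms (11971 genes, 3 or more libraries). limma 3.58.1 in R 4.3.3 gave moderated tests with Benjamini-Hochberg adjustment over all genes tested, with a threshold of 0.05. The test was checked on simulated data.

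The members and gene lists were chosen with earlier results of these data known. Named were the 4 members, the largest change in each list and direction with Il1r1, Il1r2 and Il1rap, the 5 genes most like each member, and neighbours within 250 kb. Further list genes in the text, and the neighbours given with values, were chosen after their values were seen.

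Replicate numbers were checked for pairing by correlating deviations from group means. Within WT, Map3k8[D270A], Nfkb1[SS/AA] and RSKi47 cells same-numbered libraries at different times correlated at 0.11 or above, but in Elk1-/-Elk4-/- and PD0325901 cells at -0.12 to 0.59, and the block changed no call on the WT response. Between WT and Map3k8[D270A] same-numbered libraries correlated at -0.45 to -0.06, so numbers did not pair genotypes. Alternatives were other WT replicate sets, a replicate block, quantile normalization, median centring, array weights, a trend, no filter, a size threshold, only the groups compared and each replicate left out. The split by WT replicates and the comparisons of PD0325901 without LPS were added after the values were seen.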

Additional observations from a re-analysis of the deposited data

Results flagged for a closer look

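The LPS response, taken as the stimulated level minus the unstimulated level, was compared between each arm and WT by the interaction in limma, and 34 of 64 such differences passed the threshold. All arms share the WT libraries, so these differences also depend on the WT replicate set. With WT replicates 4 to 6 alone 3 of these calls were lost and 7 gained, and with 7 to 9 alone, of which 1 library was taken at 2 h, 8 were lost and 7 gained. The interaction does not use replicate numbers. With a replicate block 4 calls were gained and 1 lost in a wider set of 144 results that holds these differences. In Map3k8[D270A] cells the 1 h response was smaller by -1.43 in Il1a, -1.14 in Il1b and -1.37 in Il1bos, where 2.4% of all genes differed. At 2 h the differences were -2.25 in Il1a, -2.10 in Il1b, -1.23 in Il1rn and -1.45 in Il1bos (17.2% of genes), and in the change from 1 to 2 h they were -0.82 in Il1a, -0.96 in Il1b and -0.80 in Il1rn (12.7%). That last value was -0.54 and not called with WT replicates 7 to 9.

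In Elk1-/-Elk4-/- cells the response differed by -0.92 in Il1a and -1.0 in Il1bos at 1 h (1.53% of genes), and by -1.19 in Il1a, -0.96 in Il1b, -0.64 in Il1rn and -1.51 in Il1bos at 2 h (17.8%). In the change from 1 to 2 h it differed by -0.58 in Il1rn and -0.52 in Il1bos (12.9%). The Il1a call at 1 h was lost when WT replicate 6 or Elk1-/-Elk4-/- replicate 1, 2 or 3 was left out, with values of -0.84 to -1.02 over all libraries left out. The Il1rn call at 2 h was lost without WT replicate 6 (-0.52) or Elk1-/-Elk4-/- replicate 4 (-0.60), and with WT replicates 7 to 9 (-0.26). The Il1rn call between 1 and 2 h was lost with either set (-0.44 with 4 to 6 and -0.33 with 7 to 9), and the Il1bos call with 4 to 6 (-0.13).

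With the pathway blocked upstream, the 1 h response in Nfkb1[SS/AA] cells differed by -1.57 in Il1a, -1.17 in Il1b and -1.49 in Il1bos, and Il1rn rose more than in WT by 0.53 (6.07% of genes). The Il1rn call was lost when any of WT replicates 4, 7, 8 and 9 or Nfkb1[SS/AA] replicates 1, 3, 4 and 5 was left out, and with WT replicates 4 to 6 (0.40). For PD0325901, whose unstimulated cells had received the inhibitor for 10 min, the 1 h response differed by -1.34 in Il1a, -0.99 in Il1b and -1.37 in Il1bos (3.64%).

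With RSKi47 the 1 h response differed by -1.13 in Il1a, -1.21 in Il1b and -1.19 in Il1bos (5.54% of genes), and the 2 h response by -0.77 in Il1rn and -0.64 in Il1bos (21%). From 1 to 2 h the change exceeded that of WT by 0.73 in Il1a, 0.77 in Il1b and 0.55 in Il1bos and was below it by -0.72 in Il1rn (14.9%). The Il1a call in that change was lost when WT replicate 5 or 6 or RSKi47 replicate 2, 3 or 4 was left out, and the Il1b call without RSKi47 replicate 2 (0.65) or 3 (0.68). With WT replicates 7 to 9 the Il1rn call at 2 h (-0.39) and all 4 calls between 1 and 2 h (0.52 for Il1a, 0.53 for Il1b, 0.18 for Il1bos and -0.47 for Il1rn) were lost.

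Of 80 groups of 4 to 10 libraries tested for a library far from the others, 1 had such a library: Il1bos in unstimulated Nfkb1[SS/AA] replicate 1 was 2.47. Chance gives about 1 in 20 such groups.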

How the results depend on the processing

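Centring library medians or fitting a trend changed no call on the 84 results of the comparisons with WT and of the WT time course. The files hold no depth per library, the sources used here do not say whether replicates came from separate animals, and all arms share WT libraries that fall into unlabelled sets. For the calls that moved, the cause was not tested.

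With WT replicates 4 to 6 alone, calls were lost for Il1bos between 1 and 2 h in WT (0.11), Il1rn in unstimulated Elk1-/-Elk4-/- cells (0.27) and at 1 h (0.08), and Il1b with RSKi47 at 0.5 h (-0.13). Calls were gained for Il1rn at 1 h in Map3k8[D270A] (-0.46), Nfkb1[SS/AA] (-0.52) and RSKi47 (-0.35) cells, Il1a in unstimulated Elk1-/-Elk4-/- cells (0.28) and Il1a with RSKi47 at 0.5 h (1.15). Il1a and Il1b with PD0325901 at 0.5 h turned to 0.55 and 0.35. With WT replicates 7 to 9 alone, calls were lost for Il1b between 1 and 2 h in WT (-0.24), Il1rn in Map3k8[D270A] cells at 2 h (-0.32), Il1a and Il1b in Elk1-/-Elk4-/- cells at 0.5 h (0.16 and 0.18), Il1b there at 1 h (-0.15), Il1rn with PD0325901 at 1 h (-0.02), and Il1b and Il1rn with RSKi47 at 2 h (-0.36 and -0.14). Calls were gained for Il1a and Il1b at 0.5 h in Map3k8[D270A] cells (-1.34 and -1.25, or -1.15 and -1.22 against the matched replicates 4 to 6) and with PD0325901 (-1.05 and -1.01), and for Il1a in unstimulated Elk1-/-Elk4-/- cells (0.30). In Nfkb1[SS/AA] cells at 0.5 h Il1a went to 0.00 and Il1b turned to -0.13, and with RSKi47 Il1a at 0.5 h turned to -0.45 and Il1rn at 1 h to 0.33.

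A replicate block, whose numbers did not pair WT with Map3k8[D270A] or Nfkb1[SS/AA] cells and were not checked across the other arms, gave Il1rn differences of 0.00, 0.15, -0.06 and -0.53 at the 4 times in Elk1-/-Elk4-/- cells, and -0.31, -0.39 and -0.36 without LPS and at 0.5 and 1 h with RSKi47. Under the block Il1rn was also called at 1 h in Map3k8[D270A] (-0.53) and Nfkb1[SS/AA] cells (-0.51), as were Il1b in Map3k8[D270A] cells (-0.51) and Il1a with RSKi47 (0.45) at 0.5 h, while Il1a (-0.51) and Il1b (-0.41) were not called in Elk1-/-Elk4-/- cells at 1 h.

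With only the groups compared in the fit, differences below were unchanged in size. Calls were gained for Il1bos in WT at 0.5 h (0.20), in unstimulated Nfkb1[SS/AA] (0.15) and RSKi47 cells (0.12), and for Il1a in unstimulated Elk1-/-Elk4-/- (0.29) and Nfkb1[SS/AA] cells (0.21). They were lost for Il1bos between 1 and 2 h in WT (0.50), Il1a and Il1b at 0.5 h in Elk1-/-Elk4-/- (0.96 and 0.86) and Nfkb1[SS/AA] cells (0.80 and 0.55), Il1rn at 1 h in Elk1-/-Elk4-/- cells (0.42) and with PD0325901 (-0.36), and Il1b with RSKi47 at 0.5 h (-0.81). Under array weights Il1rn in Elk1-/-Elk4-/- cells at 1 h (0.27) was lost and Il1a with RSKi47 at 0.5 h (0.74) gained. Without a filter Il1b in Elk1-/-Elk4-/- cells at 1 h (-0.44) was lost. Quantile normalization lost Il1b there (-0.35) and with RSKi47 at 2 h (-0.34), and gained Il1b at 0.5 h in Map3k8[D270A] cells (-0.57) and with PD0325901 (-0.37).

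Requiring also a difference of at least 1, by construction, removed the smaller calls. These were, in WT, Il1rn at 1 h (0.67) and, between 1 and 2 h, Il1a (-0.70), Il1b (-0.48) and Il1bos (0.50). They were Il1rn in Map3k8[D270A] cells at 2 h (-0.91). In Elk1-/-Elk4-/- cells they were Il1rn without LPS (0.48), Il1a, Il1b and Il1rn at 0.5 h (0.96, 0.86, 0.64), all 4 members at 1 h (-0.63, -0.44, 0.42, -0.89) and Il1a and Il1b at 2 h (-0.89, -0.88). In Nfkb1[SS/AA] cells they were Il1rn without LPS (-0.71) and Il1a, Il1b and Il1rn at 0.5 h (0.80, 0.55, -0.60), and with PD0325901 Il1rn at 0.5 and 1 h (-0.59, -0.36). With RSKi47 they were Il1a without LPS (0.44), Il1b at 0.5 h (-0.81), Il1a at 1 h (-0.69) and Il1b, Il1rn and Il1bos at 2 h (-0.41, -0.73, -0.52).

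Leaving out each replicate in turn, called results stayed called in 462 refits and lost the call in 19, uncalled results gained a call in 14 and stayed uncalled in 325, and no value that was called changed sign. The ranges where a call moved were -0.59 to -0.41 for Il1b between 1 and 2 h in WT, and, at 0.5 h in Map3k8[D270A] cells, -0.73 to -0.37 for Il1a and -0.73 to -0.40 for Il1b, both called without WT replicate 4, 5 or 6. They were -0.55 to -0.36 for Il1b and 0.34 to 0.50 for Il1rn in Elk1-/-Elk4-/- cells at 1 h. With PD0325901 they were -0.44 to -0.07 for Il1a (called without WT replicate 4 or 5) and -0.49 to -0.16 for Il1b (called without WT replicate 4, 5 or 6) at 0.5 h, and -0.45 to -0.28 for Il1rn at 1 h. With RSKi47 they were 0.36 to 0.48 for Il1a without LPS, 0.16 to 0.53 for Il1a at 0.5 h (called without WT replicate 7, 8 or 9) and -0.47 to -0.34 for Il1b at 2 h.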
